A study of Sus scrofa with 12 samples.

Results

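The genes described here encode 8 enzymes of cholesterol synthesis, HMGCS1, MVK, IDI1, FDPS, FDFT1, SQLE, LSS and CYP51A1. They were chosen by name as members of the mevalonate and sterol synthesis pathway, and each matched 1 of the 31908 gene identifiers measured. Transcripts were profiled in 12 libraries of porcine (Sus scrofa) oocytes, with 4 libraries from each stage of in vitro maturation (0h, 22h and 46h), and each library was made from a pool of oocytes. The oocytes came from antral follicles of prepubertal gilts, were matured inside their cumulus cells in a TCM199-based medium with porcine follicular fluid, epidermal growth factor and gonadotropins, and were stripped of the cumulus cells at collection. The description of the series calls the stages GV, Pre-MI and MII and gives 24h for the middle one in place of the 22h of the sample labels, which is used here. The labels name no genotype, strain or drug that differs between the groups, and they do not say that the replicates of a stage came from separate animals or cultures, so p-values measure only the spread between these libraries, which may be technical.

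Cells build cholesterol from acetyl-CoA. HMGCS1 acts on the way to mevalonate, MVK and the steps after it turn mevalonate into activated isoprene units, and IDI1 and FDPS build these into farnesyl diphosphate, which also feeds ubiquinone, dolichol and protein prenylation. FDFT1 commits farnesyl diphosphate to squalene, SQLE and LSS close squalene into lanosterol, and CYP51A1 starts the removal of the methyl groups of lanosterol. When membrane sterol is low, SREBP transcription factors raise the genes of the whole pathway through sterol regulatory elements, helped by NF-Y at CCAAT boxes. Mouse oocytes are known to make little cholesterol themselves and to receive it from their cumulus cells, and the product of CYP51A1 is known as a meiosis-activating sterol of follicular fluid.

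Levels were deposited as FPKM, fragments per kilobase of transcript and per fixed number of fragments of the library, which allows levels of different genes to be set side by side but gives no read counts, so the depth behind each value is unknown. Each cDNA was started from an oligo-dT primer on the poly(A) tail, so a value stands for polyadenylated RNA. Total FPKM was 697468 to 802184 per library, and 5819 to 7895 genes reached 1 FPKM. The share of the total that came from protein genes of the mitochondrial genome was 1.79% to 3.76% before maturation (0h), 8.06% to 12% in the middle (22h) and 12.8% to 16.7% in the end (46h). Within a stage, the lowest correlation of a library with another (log2(FPKM + 1), across genes) was 0.9344, between 0h replicates 2 and 4. Of 15 oocyte markers 12 matched, and their sum was 12848 to 19674 FPKM for the 0h libraries, 16928 to 25347 for those of 22h and 4582 to 8392 for those of 46h. Of 23 cumulus and granulosa markers 20 matched, and they summed to 48.4 to 89.9 FPKM in the 0h libraries, 57.9 to 88.8 in those of 22h and 118 to 144 in those of 46h. VCAN accounted for most of this, with a mean of 58.3 FPKM at 0h, 65 at 22h and 126 at 46h. SERPINE2 of the same list was called lower at 46h, with 1.35, 2.06 and 0.335 FPKM by stage, and FST (4.93, 3.68 and 4.41 FPKM) and STAR (4.47, 3.5 and 4.63 FPKM) were not called. Without VCAN, FST, STAR and SERPINE2, the other 16 never exceeded 0.39 FPKM in any library, and 4 of them were at 0 in all. The 8 blood and stroma markers summed to 9.76 to 12.3, 7.25 to 23.1 and 22.9 to 25.8 FPKM in the same order of stages. The part of these markers in the results below was not tested.

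The sequences around the starts and ends of the 8 genes were read from the RefSeq annotation of Sscrofa11.1, 1 longest coding transcript per gene. HMGCS1, MVK, FDPS, FDFT1, SQLE and LSS were found there under their own symbols, CYP51A1 under its synonym CYP51, and IDI1 by its product name. A sterol regulatory element (TCACNCCAC, searched on both strands) lay within 250 bases before the start of HMGCS1 and SQLE, against 0.741% of 20638 promoters of that length. The stretches are shown because HMGCS1 and SQLE were the members whose promoters held that element, and the capitals mark it.
HMGCS1, 181 bases before the start, minus strand of chr16:27957414-27957462: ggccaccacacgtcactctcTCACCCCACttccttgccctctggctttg
SQLE, 177 bases before the start, minus strand of chr4:14700301-14700349: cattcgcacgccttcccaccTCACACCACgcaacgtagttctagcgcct

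The letters CCAAT or their complement were found before the chosen start of HMGCS1, MVK, IDI1, FDPS, SQLE and LSS, against 31.4% of promoters. They were absent from the windows of FDFT1 and CYP51A1, although FDFT1 had a match before 1 of its 3 annotated starts. Counted over all annotated starts, CCAAT lay before 2 of 3 for HMGCS1, 3 of 4 for FDPS and 1 of 2 for SQLE, and the sterol regulatory element before 2 of 3 for HMGCS1 and 1 of 2 for SQLE. The promoter stretches printed above are too short to hold a CCAAT site of these genes, and a match or its absence describes only these letters.

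The last bases of the transcripts are shown because oligo-dT priming begins at the tail that follows them. In maturing oocytes, tails are known to be lengthened on mRNAs with a cytoplasmic polyadenylation element near the polyadenylation signal. Within the last 100 bases, the signal AATAAA or ATTAAA was present in 69.9% of 17414 annotated transcripts and the cytoplasmic element TTTTAT or TTTTAAT in 17.2%, on the transcript strand. The capitals mark these motifs in 30 bases of the ends of the members.
HMGCS1, minus strand of chr16:27936231-27936260: gcaggcatctatAATAAAaaaatgaaagtt
IDI1, plus strand of chr10:68539157-68539186: caaagctaaatgTTTTATaaattcaataga
FDPS, minus strand of chr4:94500145-94500174: gggggggctctcAATAAAttactatctaac
FDFT1, plus strand of chr14:15010669-15010698: tgagatttttgtAATAAAggactgaattac
SQLE, minus strand of chr4:14669795-14669824: gtgggatctgcaAATAAAatgaagaatcaa
LSS, plus strand of an unplaced scaffold, bases 553996 to 554025: cacagatttaaaTTTTATtcaggcAATAAA
CYP51A1, minus strand of chr9:72057509-72057538: gtgcaagtccaaAATAAAgtccttgaggga

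The cytoplasmic element was found in IDI1 and LSS. IDI1 had no AATAAA or ATTAAA in its window, and MVK had none of these motifs.

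The levels of the members spanned several orders of magnitude and did not move together. FDFT1, squalene synthase, stood far above the others at every stage and was not called changed. IDI1, FDPS and SQLE fell to between 0.95 and 1.36 FPKM on average by 46h, whereas CYP51A1 stayed between 12 and 18.49 FPKM in all 12 libraries. HMGCS1 was low throughout, and MVK and LSS were under 1 FPKM on average at every stage.

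**Figure D1:**
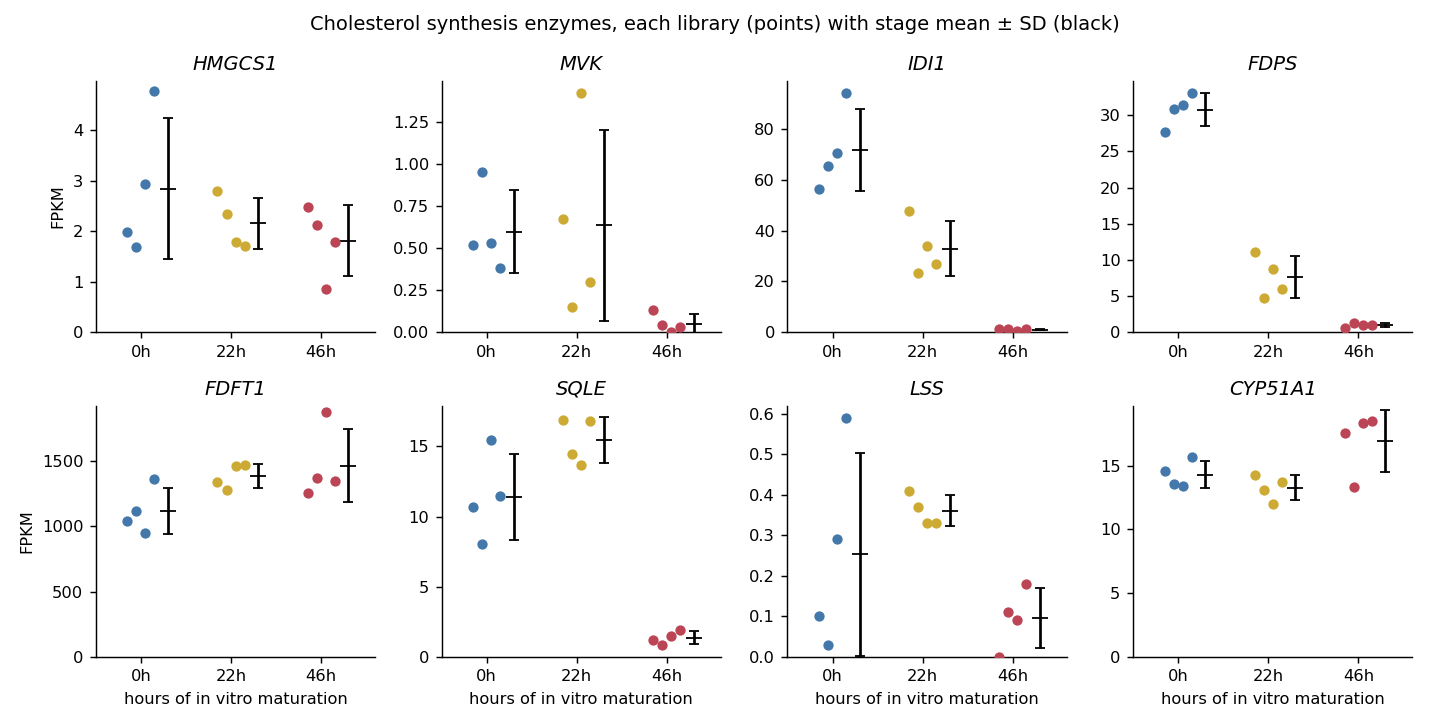
FPKM (vertical axis, linear and different for each gene) of each enzyme in each library (points) by hours of in vitro maturation (horizontal axis), with the stage mean ± SD of 4 libraries in black. IDI1 and FDPS step down at both intervals, SQLE steps down between 22h and 46h, and the points of FDFT1 and HMGCS1 overlap between stages.

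HMGCS1 (ENSSSCG00000016872, minus strand of chr16:27936230-27957261, 11 exons) condenses acetyl-CoA with acetoacetyl-CoA in the cytosol. Its level at 0h was 1.99, 1.68, 2.93 and 4.78 FPKM in replicates 1 to 4, with a mean of 2.84 ± 1.4 (SD, n = 4). At 22h it was 2.79, 2.34, 1.79 and 1.7 FPKM (2.15 ± 0.509), and at 46h 2.49, 2.13, 0.85 and 1.79 FPKM (1.81 ± 0.704). The 3 stages overlapped. The log2 fold change, here and below on the log2(FPKM + 1) scale, which understates the change of low genes, was -0.42 between 46h and 0h (95% interval -0.96 to 0.12, limma, adjusted p = 0.157). It was -0.23 between 22h and 0h (adjusted p = 0.508) and -0.19 between 46h and 22h (adjusted p = 0.558). With the values quantile normalized, the sign turned for 46h against 22h (0.33) and for 46h against 0h (0.27), and neither passed the test.

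MVK (ENSSSCG00000009931, minus strand of chr14:41341830-41357418, 8 exons) phosphorylates mevalonate. It was listed at 0.52, 0.95, 0.53 and 0.38 FPKM at 0h, at 0.67, 0.15, 1.42 and 0.3 FPKM at 22h and at 0.13, 0.04, 0 and 0.03 FPKM at 46h. The 46h values were lower than every value of both earlier stages, which overlapped each other. MVK was under the minimum of a mean of 1 FPKM over the 12 libraries that a gene needed to enter the limma fit, and was compared by an exact two-sided permutation test of 4 against 4 libraries, in which the smallest possible p is 0.0286. It gave that p for 46h against 22h and for 46h against 0h, and p = 1 for 22h against 0h by the same exact test. With any single 46h library left out, the comparison of 46h with 22h gave an exact p of 0.0857 to 0.114. Here and below, the exact p-values of genes under the minimum were not adjusted for the number of genes compared.

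IDI1 (ENSSSCG00000029066, plus strand of chr10:68534594-68539195, 5 exons) interconverts the isoprene units from which all later intermediates are built. Its level at 0h was 56.6, 65.66, 70.69 and 94.29 FPKM (71.8 ± 16.1, n = 4), that at 22h 47.72, 23.19, 33.8 and 26.7 FPKM (32.9 ± 10.8), and that at 46h 1.27, 1.09, 0.52 and 1.18 FPKM (1.02 ± 0.338). No library of a later stage reached the lowest library of the stage before. The log2 fold change was -1.13 between 22h and 0h (SE 0.23, adjusted p = 0.00222) and -4.04 between 46h and 22h (SE 0.23, adjusted p = 5.10e-09). Between 46h and 0h it was -5.17 (adjusted p = 2.44e-10), and the mean FPKM was 70.7-fold lower. Among the 6 members tested, this was the largest fall over the whole of maturation.

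FDPS (ENSSSCG00000006512, minus strand of chr4:94500140-94514736, 10 exons) makes farnesyl diphosphate, the branch point of the pathway. At 0h it was 27.63, 30.84, 31.41 and 33.1 FPKM (30.7 ± 2.29, n = 4), at 22h 11.08, 4.76, 8.8 and 5.91 FPKM (7.64 ± 2.86), and at 46h 0.55, 1.28, 1.05 and 0.92 FPKM (0.95 ± 0.305). The 3 stages were fully separated, in falling order. The log2 fold change was -1.94 between 22h and 0h (SE 0.216, adjusted p = 3.25e-05) and -2.10 between 46h and 22h (SE 0.216, adjusted p = 2.06e-06). Between 46h and 0h it was -4.04 (adjusted p = 1.31e-09), a 32.4-fold lower mean FPKM.

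FDFT1 (ENSSSCG00000026044, plus strand of chr14:14982114-15010701, 7 exons) joins a pair of farnesyl diphosphates into squalene, the first step that leads only to sterols. Its level was 1038.34, 1119.66, 951.99 and 1364.98 FPKM at 0h (1119 ± 178, n = 4), 1341.52, 1279.08, 1465.31 and 1467.95 FPKM at 22h (1388 ± 93.8), and 1258.64, 1375.41, 1879.72 and 1348.17 FPKM at 46h (1465 ± 281). The stages overlapped, and by its mean FDFT1 ranked 86th among all identifiers at 0h, 76th at 22h and 67th at 46h. The log2 fold change was 0.32 between 22h and 0h (adjusted p = 0.159), 0.06 between 46h and 22h (adjusted p = 0.782) and 0.38 between 46h and 0h (95% interval 0.02 to 0.74, adjusted p = 0.0595). With median-of-ratios scaling, the last of these was 0.79 and passed the test (adjusted p = 0.00104). TPM scaling turned the sign of 46h against 22h to -0.03.

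SQLE (ENSSSCG00000005970, minus strand of chr4:14669789-14700152, 10 exons) puts oxygen on squalene and is known as a control point of the pathway. It was 10.67, 8.05, 15.43 and 11.43 FPKM at 0h (11.4 ± 3.05, n = 4), 16.85, 14.45, 13.64 and 16.83 FPKM at 22h (15.4 ± 1.65), and 1.23, 0.83, 1.48 and 1.92 FPKM at 46h (1.36 ± 0.457). The 0h and 22h libraries overlapped, and every 46h library was below all of them. The log2 fold change was 0.43 between 22h and 0h (95% interval 0.01 to 0.86, adjusted p = 0.107), which did not pass the test. It was -2.81 between 46h and 22h (SE 0.197, adjusted p = 4.09e-08), an 11.3-fold lower mean FPKM, and -2.38 between 46h and 0h (adjusted p = 1.11e-07), an 8.35-fold lower mean FPKM.

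LSS (ENSSSCG00000021418, on an unplaced scaffold, 22 exons) closes the epoxide of squalene into lanosterol, the first sterol. It was listed at 0.1, 0.03, 0.29 and 0.59 FPKM at 0h, at 0.41, 0.37, 0.33 and 0.33 FPKM at 22h and at 0, 0.11, 0.09 and 0.18 FPKM at 46h, and was under the minimum for the fit. The 46h libraries lay below all 22h libraries (exact permutation p = 0.0286). They overlapped the 0h libraries (exact permutation p = 0.286), which in turn overlapped those of 22h (exact permutation p = 0.314). Without 0h replicate 4, the 22h libraries lay above those of 0h (exact permutation p = 0.0286).

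CYP51A1 (ENSSSCG00000015311, minus strand of chr9:72057508-72079147, 10 exons) demethylates lanosterol. It was 14.62, 13.54, 13.41 and 15.66 FPKM at 0h (14.3 ± 1.05, n = 4), 14.29, 13.08, 12 and 13.74 FPKM at 22h (13.3 ± 0.985), and 17.54, 13.36, 18.34 and 18.49 FPKM at 46h (16.9 ± 2.42). At 46h, 3 of the 4 libraries lay above every earlier one and replicate 2 lay among them. The log2 fold change was -0.10 between 22h and 0h (adjusted p = 0.629), 0.32 between 46h and 22h (adjusted p = 0.0857) and 0.22 between 46h and 0h (95% interval -0.09 to 0.53, adjusted p = 0.206). Between 46h and 0h it was called higher with median-of-ratios scaling (0.60, adjusted p = 0.0025) and with quantile normalization (0.82, adjusted p = 0.000163). Those scalings called it higher between 46h and 22h (0.66, adjusted p = 0.00211, and 0.78, adjusted p = 0.000487).

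Of the 8 members, 6 passed the minimum and were tested among 7013 genes, and calls needed both an adjusted p below 0.05 and a fold change above 1.5. Between 22h and 0h, IDI1 and FDPS were called lower and no member higher, while 18.9% of all genes tested were called lower and 7.84% higher, and 18.6% had 22h libraries that all lay below those of 0h, as IDI1 and FDPS did. The median log2 fold change was -0.17 over the 6 members (-0.04 without 0h replicate 4) and -0.00 over all genes. Between 46h and 22h, IDI1, FDPS and SQLE were called lower, against a background of 32.6% lower and 9.87% higher, and their libraries did not overlap, as was so in falling direction for 35.4% of all genes. Here the median was -1.15 over the 6 members and -0.26 over all genes, and it was -0.45 over all 8 members without the minimum and -2.10 over those with a mean of at least 5 FPKM. Between 46h and 0h, the same 3 members were called lower, against 39.1% lower and 16.8% higher, with medians of -1.40 and -0.25, and again without overlap, as in 39.2% of all genes. Over all 8 members this median was -0.51, and over those with a mean of at least 5 FPKM -2.38. Among 6 genes, a count of 3 lower against 39.1% is close to the background, so the count itself is not particular to the members. These comparisons share libraries and are not independent of each other.

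How libraries are scaled moved the balance of the whole transcriptome. Of the genes called between 46h and 0h, 30.1% were higher, against 47.4% with median-of-ratios scaling, 61.7% with quantile normalization and 24.5% with TPM. The median of all genes was then 0.07, 0.37 and -0.35, in that order. For 46h against 22h, the share of called genes that were higher was 23.3%, and it was 44.3%, 59.5% and 16.9% under those scalings. For 22h against 0h it was 29.4%, 35.1%, 48.2% and 27.6%. The falls of IDI1, FDPS and SQLE were called under each of these scalings and without any single library.

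**Figure D2:**
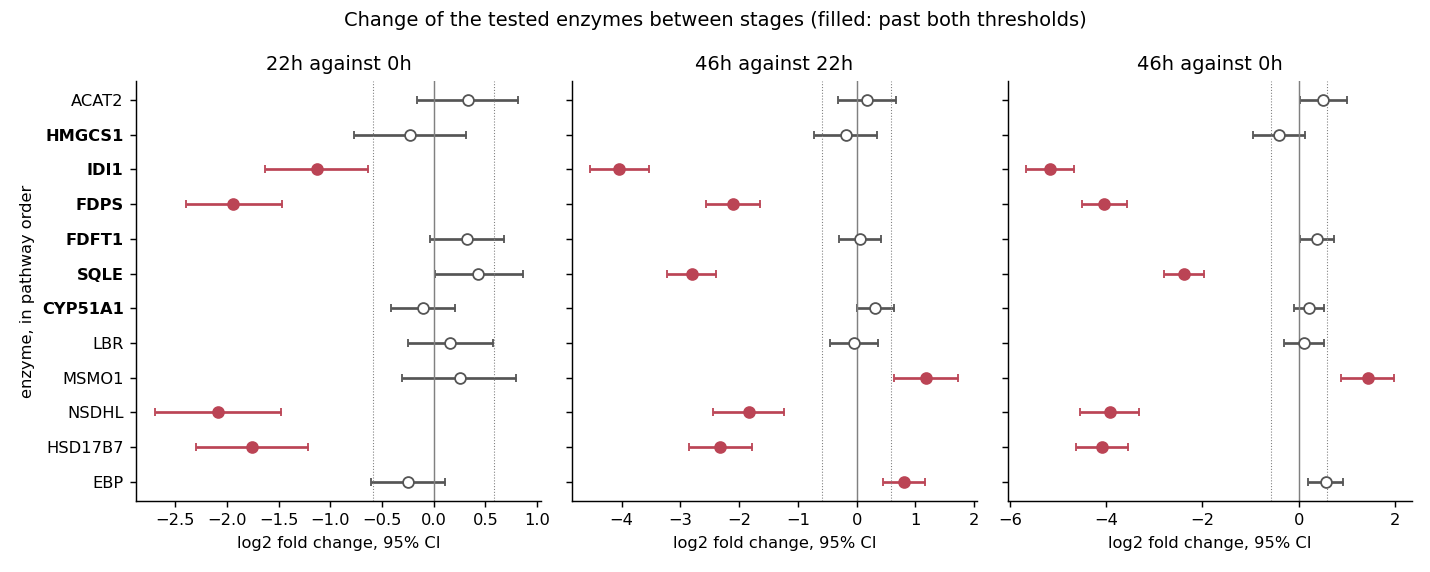
Log2 fold change of the 12 tested enzymes of the pathway with its 95% confidence interval (horizontal axis, scales differ between panels), in pathway order, for 22h against 0h, 46h against 22h and 46h against 0h. Filled symbols passed an adjusted p of 0.05 and a fold change of 1.5 (dotted lines), and names in bold are the members, of which IDI1, FDPS and SQLE lie far to the left at 46h.

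The timing of the falls of the 3 members was tested for each gene by itself, and the members were not tested against each other. The change between 22h and 46h minus that between 0h and 22h, tested as 1 contrast of the same limma fit, was -3.25 for SQLE (SE 0.341, adjusted p = 1.26e-05) and -2.90 for IDI1 (SE 0.399, adjusted p = 0.000124). On the log2 scale, IDI1 fell more in the second interval than in the first, and SQLE fell in the second only. In FPKM, the mean of IDI1 went from 71.8 to 32.9 and then to 1.02, so the second fall was not the larger in amount. For FDPS the contrast was -0.17 (95% interval -0.97 to 0.64, adjusted p = 0.786), and without 22h replicate 1 it was 0.20. As FDPS was near 1 FPKM at 46h, the pseudocount matters here: with 0.1 in place of 1 the contrast was -0.79 (adjusted p = 0.254), and mean FPKM was 4.03-fold lower after the first interval and a further 8.04-fold lower after the second. Over all genes, 21% were called by this contrast, 16.2% with a lower and 4.73% with a higher second interval. FDFT1, CYP51A1 and HMGCS1 were not called, with adjusted p of 0.567, 0.263 and 0.955.

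The order of the levels changed with maturation. At 0h the order was FDFT1, IDI1, FDPS, CYP51A1, SQLE, HMGCS1, MVK and LSS, and only the neighbours CYP51A1 and SQLE, and MVK and LSS, overlapped over their 4 libraries. FDFT1 was 15.6 times the next member, IDI1. At 22h, SQLE and CYP51A1 had passed FDPS without overlapping it, the same 2 pairs of neighbours overlapped, and FDFT1 was 42.3 times IDI1. At 46h, CYP51A1 was second, FDFT1 was 86.5 times as high, and CYP51A1 was 9.33 times HMGCS1. The levels of HMGCS1, SQLE, IDI1 and FDPS followed, and each overlapped the next in this order, as did LSS and MVK at the bottom.

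The summed FPKM of the 8 members was 1251 ± 194 at 0h, 1461 ± 94.8 at 22h and 1488 ± 280 at 46h (SD, n = 4). The differences did not pass an exact permutation test (p = 0.0857 for 22h against 0h, 0.943 for 46h against 22h and 0.2 for 46h against 0h). With median-of-ratios scaling all of them passed, at 1.21, 1.3 and 1.57 times the earlier stage (exact permutation p = 0.0286 each), and without 0h replicate 4 the first passed, at 1.26 times (exact permutation p = 0.0286). The share of FDFT1 in this sum was 87.6% to 90.3% in the 0h libraries, 93.5% to 95.7% in those of 22h and 98.2% to 98.8% in those of 46h. Without FDFT1, the other 7 summed to 132 ± 21, 72.4 ± 15.3 and 22.2 ± 2.43 FPKM. These sums did not overlap between any of the stages (exact permutation p = 0.0286 for each comparison, the smallest possible). IDI1 and FDPS, with means of 71.8 and 30.7 FPKM, made up most of the 0h sum, and CYP51A1, with 16.9 FPKM, most of the 46h sum. The fall of the sum is therefore largely that of IDI1 and FDPS given above.

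A ratio of consecutive enzymes within a library does not depend on a constant factor applied to the whole library, apart from the pseudocount of 1, although quantile normalization would change it. The 7 ratios in pathway order were compared between stages, which made 21 exact permutation tests, and 14 reached the smallest possible p of 0.0286 (adjusted p = 0.0429). Neighbouring ratios share a member, so the 14 are not separate results. The share among ratios of other gene pairs was not computed, so the count is not shown to be particular to the members. Of single genes, 18.6% (22h against 0h), 35.4% (46h against 22h) and 39.2% (46h against 0h) already fell without overlap. The log2 ratio of FDPS to FDFT1, the enzymes on both sides of the commitment to sterols, was -5.13 ± 0.19 at 0h, -7.39 ± 0.47 at 22h and -9.55 ± 0.26 at 46h (SD, n = 4). All libraries of a later stage lay below those of the earlier. The ratio of MVK to IDI1 rose, from -5.50 ± 0.45 at 0h to -4.38 ± 0.42 at 22h and -0.92 ± 0.22 at 46h, also with no overlap between stages. As MVK was under 1 FPKM on average, the pseudocount weighs on this ratio. With 0.1 in place of 1, the difference between 46h and 0h was 3.83 in place of 4.57. The ratio of IDI1 to FDPS moved both ways, from 1.18 ± 0.21 at 0h to 1.98 ± 0.10 at 22h and 0.04 ± 0.42 at 46h, again with no overlap between stages. The ratio of FDFT1 to SQLE was 6.52 ± 0.48 at 0h and 6.40 ± 0.17 at 22h, which overlapped, and 9.28 ± 0.35 at 46h. The ratio of HMGCS1 to MVK overlapped between all stages, and those of SQLE to LSS and of LSS to CYP51A1 were lower at 46h than at 22h by 2.50 and 0.64 on the log2 scale. LSS is so low that the pseudocount sets its term: with a pseudocount of 0.1 the difference for LSS to CYP51A1 was -1.67, and with any single 22h library left out its adjusted p was 0.0857 (exact permutation). With only 70 arrangements of 4 against 4 libraries the adjusted p has no room: with a pseudocount of 0.1, or without 22h replicate 3, the number past the test was 0.

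**Figure D3:**
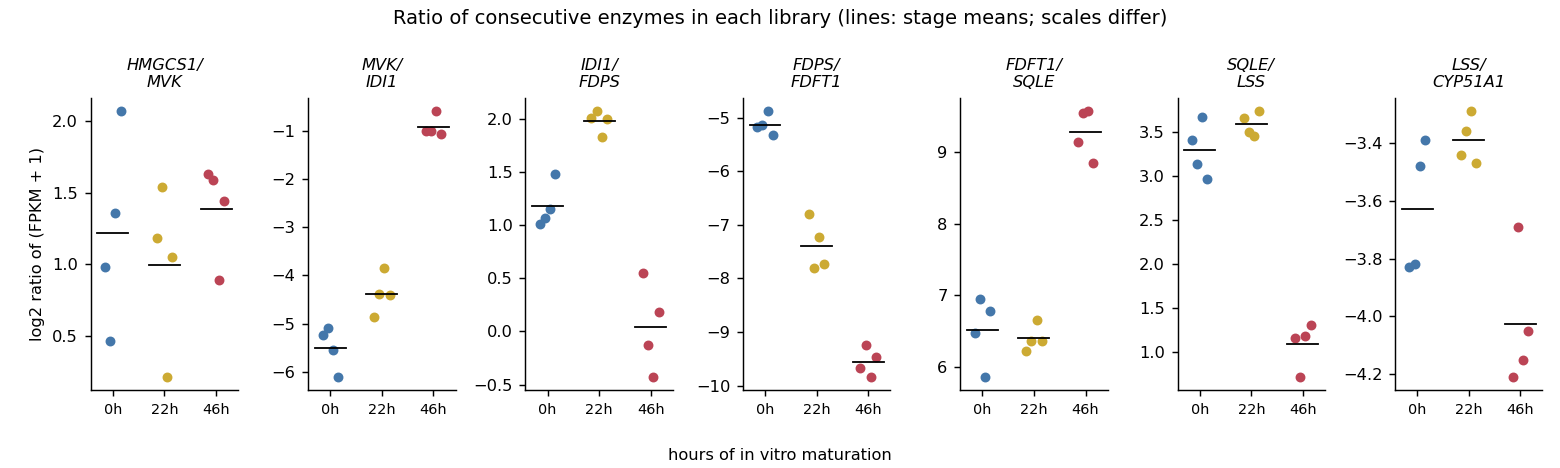
Log2 ratio of (FPKM + 1) of consecutive enzymes (vertical axis, different for each panel) in each library (points) by hours of in vitro maturation (horizontal axis), with lines at the stage means. FDPS/FDFT1 steps down from -5.13 to -7.39 and -9.55, and IDI1/FDPS rises from 1.18 to 1.98 and then falls to 0.04.

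The rest of the pathway was taken from a list of 13 further enzymes, of which 12 matched (PMVK did not) and 6 were tested. HSD17B7 and NSDHL, which act together in the removal of methyl groups after CYP51A1, were called lower in all 3 comparisons, which is 2 of 6 tested enzymes against backgrounds of 18.9% (22h against 0h), 32.6% (46h against 22h) and 39.1% (46h against 0h). HSD17B7 was 1402 ± 446, 406 ± 104 and 78.6 ± 8.33 FPKM at 0h, 22h and 46h, a log2 fold change of -4.08 over maturation (adjusted p = 5.17e-09). NSDHL was 21.7 ± 5.56, 4.58 ± 2.3 and 0.463 ± 0.208 FPKM (-3.93, adjusted p = 2.56e-08).

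MSMO1, the oxidase of the same demethylation, was called higher in both comparisons of 46h (9.87% of all genes against 22h and 16.8% against 0h), with 127 ± 45.2, 146 ± 35.3 and 327 ± 38.9 FPKM (1.43 between 46h and 0h, adjusted p = 0.000231). The sterol isomerase EBP was called higher between 46h and 22h (0.81, adjusted p = 0.0012), where it went from 51.1 ± 4.03 to 90.5 ± 9.92 FPKM. At 0h it was 62 ± 13.9 FPKM. Between 46h and 0h its libraries overlapped, and its change (0.56, limma, adjusted p = 0.00995) was under the fold change threshold and not called. DHCR7, a reductase of the last steps, was at or below 0.17 FPKM in every library. Of the 20 matched enzymes, members included, 13 had a mean of at least 1 FPKM at 0h, 12 at 22h and 10 at 46h.

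**Figure D4:**
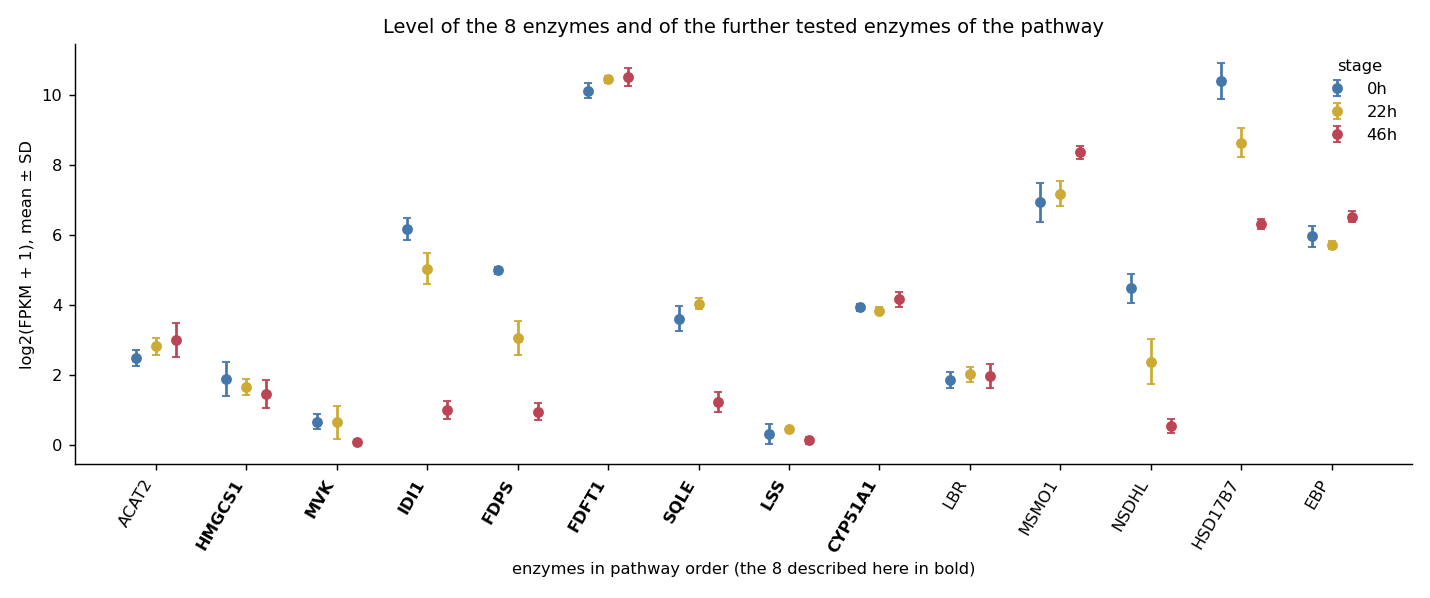
Level of the 8 members (bold) and of the further enzymes that were tested, as the mean ± SD of log2(FPKM + 1) over 4 libraries (vertical axis), at 0h, 22h and 46h, in pathway order (horizontal axis). Enzymes with high and low levels stand side by side along the pathway, with FDFT1 at or near the top at every stage, HSD17B7 beside it at 0h, and MVK and LSS near 0.

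Of the 11 genes of sterol sensing and SREBP activation, 10 matched and 5 were tested. SREBF1 was listed at 0 in all 12 libraries. SREBF2, the SREBP that drives cholesterol genes, was 0.268 ± 0.0556, 0.573 ± 0.145 and 0.26 ± 0.186 FPKM. This was higher at 22h than at 0h without overlap (exact permutation p = 0.0286, unadjusted). Its escort SCAP was 0.795 ± 0.618, 0.52 ± 0.175 and 0.242 ± 0.0287 FPKM, and its 46h libraries lay below all others (exact permutation p = 0.0286 for both). INSIG1, which retains SCAP in the endoplasmic reticulum, was called higher at 22h than at 0h (0.65, adjusted p = 0.00707), from 1.51 ± 0.444 to 2.93 ± 0.542 FPKM, the 1 call among the 5 tested, against 7.84% of all genes. INSIG2 was called higher at 46h than at 0h (0.59, adjusted p = 0.00308), against 16.8% of all genes. NFYC, a subunit of the factor that binds CCAAT boxes, was 51.9 ± 11, 35 ± 12.6 and 9.22 ± 4.11 FPKM. It was called lower at 46h than at 0h (-2.43, adjusted p = 4.06e-06), against 39.1% of all genes, and not called between 0h and 22h.

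Of 8 genes for the turnover of pathway enzymes, all were tested and 2, UBXN8 and AUP1, were called lower between 46h and 0h (-1.84, adjusted p = 4.86e-07, and -1.45, adjusted p = 0.000122), against the 39.1% of all genes called lower there. Of 19 genes of cholesterol uptake, transport and export, 8 were tested, with 4 called lower and 1 higher between 46h and 0h, counts near the 39.1% and 16.8% of all genes. The lower were NR1H3 (-2.33, adjusted p = 8.17e-07), a sterol-sensing nuclear receptor, NPC1 (-2.25, adjusted p = 3.86e-07) and NPC2 (-0.88, adjusted p = 0.00309), which move cholesterol out of lysosomes, and VLDLR (-1.63, adjusted p = 5.11e-06), a lipoprotein receptor. LIPA, the lysosomal lipase that frees cholesterol from its esters, was higher (1.14, adjusted p = 0.000226). SOAT1, which esterifies cholesterol, was the 1 gene tested of 4 in its list and was called lower between 46h and 0h (-0.72, adjusted p = 0.00614). Of 15 genes on the branches that leave the mevalonate pathway, 12 matched, 10 were tested and 5 were called lower between 46h and 0h, again near the 39.1% of all genes, among them the prenyltransferase subunits FNTB (-1.73, adjusted p = 9.82e-05) and PGGT1B (-1.23, adjusted p = 0.000173) and the geranylgeranyl diphosphate synthase GGPS1 (-1.10, adjusted p = 0.00333). No branch gene was called higher in that comparison, against 16.8% of all genes. Between 46h and 22h, 1 of the 10 was called higher and 3 lower (FNTB, PGGT1B and PDSS2), against 9.87% and 32.6% of all genes. The higher one was PDSS1, a subunit for the ubiquinone side chain (0.78, adjusted p = 0.00773). PDSS1 was not called between 22h and 0h (-0.54) or between 46h and 0h (0.23).

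Beside the members, the named genes whose log2(FPKM + 1) followed each of them most closely over the 12 libraries were found by Pearson's r, given here as a description since the points share the 3 stages and their scaling. For IDI1 they were PSMC5 and DENND2C (r = 0.994 each), and for FDPS EMG1 (0.996) and ANGEL2 (0.995). For SQLE they were DUSP5 (0.991) and RAB3IP (0.989). RAB3IP averaged 239 FPKM at 0h, 373 at 22h and 30.8 at 46h, and the means of SQLE, 11.4, 15.4 and 1.36 FPKM, had the same order, although its 0h and 22h libraries overlapped. The members that were not called had looser matches, HMGCS1 with CWC27 (0.945) and TOP2A (0.927), FDFT1 with RPP25L (0.926) and SUSD3 (0.913), and CYP51A1 with BRMS1L (0.916) and TP53INP1 (0.894).

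The paper gives the same number of oocytes for every library. For any other cells left in these bulk samples, fewer cells of a kind and less RNA per cell cannot be told apart. Neither can loss of an mRNA and shortening of its poly(A) tail, which the oligo-dT primer needs. The shares of mitochondrial RNA and the summed markers given above moved with the stage, and their part in the changes of the members was not tested.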

How the data were processed

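The authors trimmed the reads with Trim Galore, aligned them to Sscrofa11 with STAR and quantified genes with RSEM, and deposited 1 FPKM value per Ensembl identifier and library. The study tested counts. As the files held FPKM, log2(FPKM + 1) was fitted with limma 3.58.1 in R 4.3.3 (eBayes with trend) over the 12 libraries with stage as the only factor, for the 7013 genes whose mean reached 1 FPKM. The p-values are two-sided and were adjusted over these genes after Benjamini and Hochberg. Genes under the minimum, ratios and sums were compared by exact two-sided permutation tests over the 70 arrangements of 4 against 4 libraries. The p-values of the ratios were adjusted over all ratio tests, and those of the genes under the minimum and of the sums were not adjusted. The members and gene lists were chosen with earlier results of these data known. Named are the 8 members, up to 3 genes with the largest rise and 3 with the largest fall called between 46h and 0h in each further list, DHCR7, SREBF2, SCAP and INSIG1, and the 2 genes most similar to each tested member. EBP, NPC2, PDSS1, SREBF1, STAR and FST were added after their values were seen, and some genes that the rule names are not reported here. In simulated data for 46h against 0h with 7013 genes, 79 of 100 genes changed by 1 on the log2 scale and 98 of 100 changed by 2 were called, none in the wrong direction, and 11 of 6813 unchanged genes were called. The simulation had normal noise, far fewer changed genes than the real comparison, random directions and no shift in library scaling. Its rates therefore do not cover errors from scaling. The alternatives were another pseudocount (0.1), no minimum or a mean of 5 FPKM, median-of-ratios, quantile and TPM scaling, only the stages compared, no trend, the replicate number as a block, no fold threshold and each library left out. Sequences and locations come from RefSeq's annotation of Sscrofa11.1. Tables were made with Python 3.11.15, pandas 2.3.3 and statsmodels 0.14.6.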

Additional observations from a re-analysis of the deposited data

Results flagged for a closer look

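The change of 2 members differed between the intervals of maturation by a test of the difference itself, which 21% of all genes tested also passed. For IDI1, the log2 change from 22h to 46h minus that from 0h to 22h was -2.90 (limma, adjusted p = 0.000124), with falls of 1.13 and 4.04 on the log2 scale in the first and the second interval. For SQLE the same difference was -3.25 (limma, adjusted p = 1.26e-05), with a change of 0.43 that did not pass the test in the first interval and a fall by 2.81 in the second. Left out singly, the 12 libraries gave -3.19 to -2.52 for IDI1 and -3.39 to -3.11 for SQLE. In 24 groups of 4 libraries, the 8 members at each of 3 stages, no library stood apart from the others by Dixon's criterion.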

How the results depend on the processing

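The lower calls of IDI1, FDPS and SQLE held under all alternatives run and without any single library. With median-of-ratios scaling, 1 member was called higher for 46h against 22h (CYP51A1) and 2 for 46h against 0h (FDFT1 and CYP51A1), and with quantile normalization 1 in each (CYP51A1), in place of 0. Further enzymes called higher for 46h against 0h numbered 1, and 3 with median-of-ratios scaling, 4 with quantile normalization, 3 with TPM without mitochondrial genes, 2 without a fold threshold and 1 to 2 with a library left out, while the share of all called genes that were higher went from 30.1% to 47.4% and 61.7% under the first pair of these. The members' median for 46h against 22h (-1.15) was -1.58 with a pseudocount of 0.1, -0.45 without a minimum, -2.10 at a mean of 5 FPKM and -0.69 with quantile normalization. That for 46h against 0h (-1.40) was -1.80, -0.51, -2.38 and -0.73, and that for 22h against 0h (-0.17) was -0.25 to -0.04 with a library left out. The ratios past the test (14) were 0 with a pseudocount of 0.1 and 0 to 15 with a library left out. The summed level was 1.21, 1.3 and 1.57 times the earlier stage with median-of-ratios scaling (22h against 0h, 46h against 22h, 46h against 0h, exact permutation p = 0.0286 each), 0.955 times with TPM for 46h against 22h, and 1.12 to 1.26 (22h against 0h) and 0.924 to 1.07 (46h against 22h) with a library left out. The causes were not tested, except that a minimum changes which members enter the median.

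Signs turned for values that did not pass the test: CYP51A1 for 22h against 0h (0.04, quantile), HMGCS1 for 46h against 22h (0.05 with median-of-ratios, 0.33 quantile) and for 46h against 0h (0.27, quantile), FDFT1 for 46h against 22h (-0.03, TPM), the timing of HMGCS1 (-0.00, pseudocount of 0.1), FDPS (0.00) and FDFT1 (0.05, both median-of-ratios), and SQLE/LSS for 22h against 0h (-0.20, pseudocount of 0.1). With a library left out, the ranges that crossed zero were -0.06 to 0.13 for FDFT1 (46h against 22h), -0.17 to 0.23 and -0.52 to 0.20 for the timing of HMGCS1 and FDPS, -0.47 to 0.06 and -0.08 to 0.45 for HMGCS1/MVK (22h and 46h against 0h), -0.33 to 0.03 for FDFT1/SQLE (22h against 0h) and -0.22 to 0.14 for MVK (22h against 0h). MVK at 46h against 22h was -0.73 to -0.37.

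The replicate numbers were not taken as pairing the libraries. The deviations of same-numbered libraries from their stage means correlated at -0.466, 0.0823, -0.1875 and -0.4646 between 0h and 22h, at -0.241, 0.0845, -0.042 and -0.2814 between 0h and 46h, and at 0.3806, 0.0088, 0.2106 and 0.1267 between 22h and 46h, so not every pair exceeded 0.1. The replicate number as a block left 2, 3 and 3 members called lower and changed no call of a member, with a log2 fold change for IDI1 between 46h and 0h of -5.17. Since FPKM carry no counts, how far depth limits MVK and LSS is unknown.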
